A study of Rattus norvegicus with 9 samples.

Results

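Complex I, the NADH:ubiquinone oxidoreductase of the mitochondrial inner membrane, was followed here at the level of its transcripts in rat heart. Every row of the deposited expression table whose gene symbol begins with Nduf was taken, which gave 45 genes of 22601 in the table. Of these, 44 passed the filter on low values and were tested with the 11717 genes that passed it in all, and Ndufa3 was listed at 0 in every library. By textbook role, 7 encode core subunits, 9 accessory subunits of the matrix arm, 19 accessory subunits of the membrane arm, 1 the acyl carrier protein Ndufab1 and 7 assembly factors. The remaining 2, Ndufa4 and Ndufa4l2, carry the name but are not subunits of complex I. The 7 subunits encoded in mitochondrial DNA were not analysed here.

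RNA of heart tissue was sequenced in 3 groups of 3 libraries each, all from rats at 48 weeks of age. SHR+Allisartan were spontaneously hypertensive rats that received allisartan, an antagonist of the angiotensin receptor used against high blood pressure, in 1 ml of water by mouth for 34 weeks. SHR were rats of the same strain given water alone in the same way and for the same time. WKY were Wistar Kyoto rats, a strain with normal blood pressure, on the same water schedule. Strain and hypertension go together in SHR against WKY and cannot be told apart there. In SHR+Allisartan against WKY, strain, allisartan and any difference in blood pressure cannot be told apart. Whether the 3 libraries of a group are 3 animals is not in the labels, and the p-values cover only the variation among the libraries, which may be technical. The 3 comparisons share libraries pairwise: SHR enters 2 of them, as do the other groups, so a low SHR value moves 2 comparisons at once.

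Complex I takes electrons from NADH in its matrix arm, passes them along a chain of iron-sulphur clusters to ubiquinone, and couples that transfer to proton pumping in its membrane arm. The core subunits carry the cofactors and the quinone site, the accessory subunits form a shell needed for assembly and stability, and the assembly factors act on intermediates and leave the finished enzyme. The heart, which runs mostly on fatty acid oxidation, is among the tissues richest in this enzyme.

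The values are FPKM, fragments scaled by transcript length and library size, each divided by 1 factor per library (0.965 to 1.04), and n = 3 libraries per group throughout. Log2 changes are differences between groups in mean log2(rescaled FPKM + 0.5), and the added 0.5 shrinks the change of genes at low levels. Each adjusted p comes from limma with Benjamini-Hochberg adjustment over all 11717 genes of a comparison, and calls were made below 0.05. The libraries held 14279 to 14948 genes above 0. Their sequencing depth is unknown, so no counting interval is given.

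Transcripts of this gene group were most abundant in SHR+Allisartan and least abundant in SHR. Summed over the 45 genes, the level was 15138, 13641 and 13036 FPKM in SHR+Allisartan, 11270, 11439 and 10453 in SHR and 13319, 12333 and 12046 in WKY. The 3 SHR libraries lay below the other 6, and SHR+Allisartan and WKY overlapped. As a share of all FPKM the sum came to 3.60 ± 0.171% in SHR+Allisartan, 3.08 ± 0.151% in SHR and 3.35 ± 0.0451% in WKY (mean ± SD). These sums are descriptions and carry no test.

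**Figure D1:**
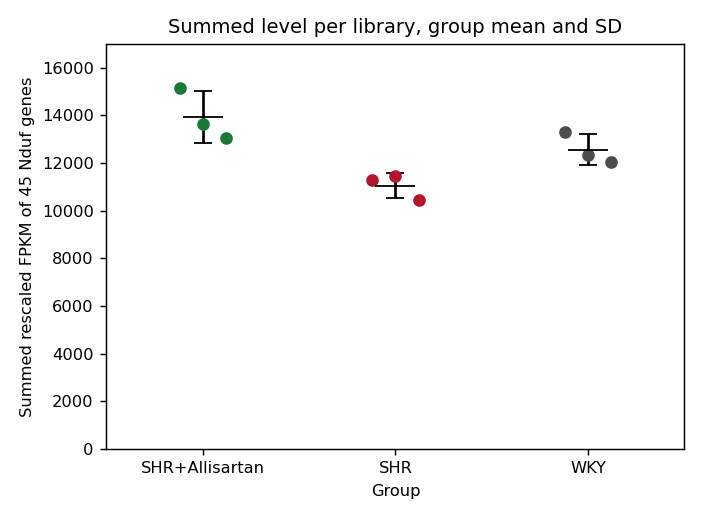
Summed rescaled FPKM of the 45 Nduf genes (y axis, starting at 0) in each of 9 libraries (points), with the group mean (wide bar) and SD (whiskers), for SHR+Allisartan, SHR and WKY. The 3 SHR libraries, at 10453 to 11439, are the lowest.

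With allisartan, 20 of the 44 tested Nduf genes were higher and 4 lower than in untreated SHR. Over all 11717 tested genes, 16.1% were called higher and 17.4% lower in that comparison, 33.5% in either direction. Ordered by size, the higher genes were Ndufa12, Ndufaf2, Ndufb4, Ndufa8, Ndufs7, Ndufb10, Ndufb9, Ndufs4, Ndufab1, Ndufaf4, Ndufc2, Ndufv2, Ndufb7, Ndufb3, Ndufa11, Ndufb2, Ndufb5, Ndufv3, Ndufs3 and Ndufs1. The lower ones were Ndufa2, Ndufa1, Ndufa10l1 and Ndufa10. The median log2 change of the 44 genes was 0.22, beside -0.026 over all tested genes, and 34 of the 44 changes were positive. Values of the 3 SHR+Allisartan and the 3 SHR libraries did not overlap for 27 of the 44 genes, and for 46.4% of all tested genes. When each of the 9 libraries was left out in turn, 17 of the 24 calls were kept in every fit, 14 higher and 3 lower. The number called higher was lowest, at 14, without SHR replicate 3. Without the filter on low values, which tests more genes, the calls lost were those of Ndufa1, Ndufa11, Ndufaf4, Ndufb2, Ndufc2, Ndufs3, Ndufv2 and Ndufv3 (adjusted p of 0.0546 to 0.190).

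The comparison of SHR with WKY showed fewer calls, most of them downward. Here 2 of the 44 genes were higher in SHR (Ndufa10l1 and Ndufv3) and 8 were lower (Ndufa10, Ndufs4, Ndufa5, Ndufc2, Ndufb8, Ndufs3, Ndufb10 and Ndufs1). Over all tested genes 21.9% were called, 11.9% higher and 9.93% lower, so the 22.7% called among the Nduf genes lay close to the background in either direction. By direction, the 4.55% of Nduf genes called higher lay below its background, and the 8 of 44 called lower lay above theirs. The median log2 change was -0.19, beside 0.011 over all tested genes, and 36 of the 44 changes were negative. The groups did not overlap for 21 genes, and for 40.9% of all tested genes. The count of 8 calls downward fell when any of several libraries was left out. Without SHR replicate 3 the count was 1, the call of Ndufa10, with 1551 genes called in all instead of 2561. It was 2 without WKY replicate 1, and 3 without WKY replicate 2 or SHR replicate 2. Without SHR+Allisartan replicate 3, which is no member of this comparison but shares its variance estimate, the count was 11. Only Ndufa10, Ndufa10l1 and Ndufv3 kept their call whichever library was left out, and the direction of Ndufa10 turned round when its near copy Ndufa10l1 was added to it. Without the filter the calls lost here were those of Ndufa5, Ndufb10, Ndufb8, Ndufc2, Ndufs3 and Ndufs4 (adjusted p of 0.0557 to 0.164).

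Set against WKY, SHR+Allisartan had 13 genes higher (among them Ndufa12, Ndufa10l1, Ndufaf2, Ndufv3, Ndufa8, Ndufb4, Ndufs5, Ndufb9, Ndufab1, Ndufb10, Ndufs7 and Ndufb3) and 6 lower (Ndufa1, Ndufa2, Ndufa10, Ndufb6, Ndufb8 and Ndufa5). Background shares were 12.9% higher, 11.4% lower and 24.3% in either direction. The median log2 change was 0.12, beside -0.0095 over all tested genes, with 27 changes positive and 17 negative. It was 0.047 without SHR+Allisartan replicate 1. The groups did not overlap for 20 genes, and for 40.1% of all tested genes. In the fits that leave out 1 library, 14 of the 19 calls were kept throughout. The calls lost without the filter were those of Ndufa5, Ndufb3, Ndufb8, Ndufs5 and Ndufs7 (adjusted p of 0.0710 to 0.180).

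**Figure D2:**
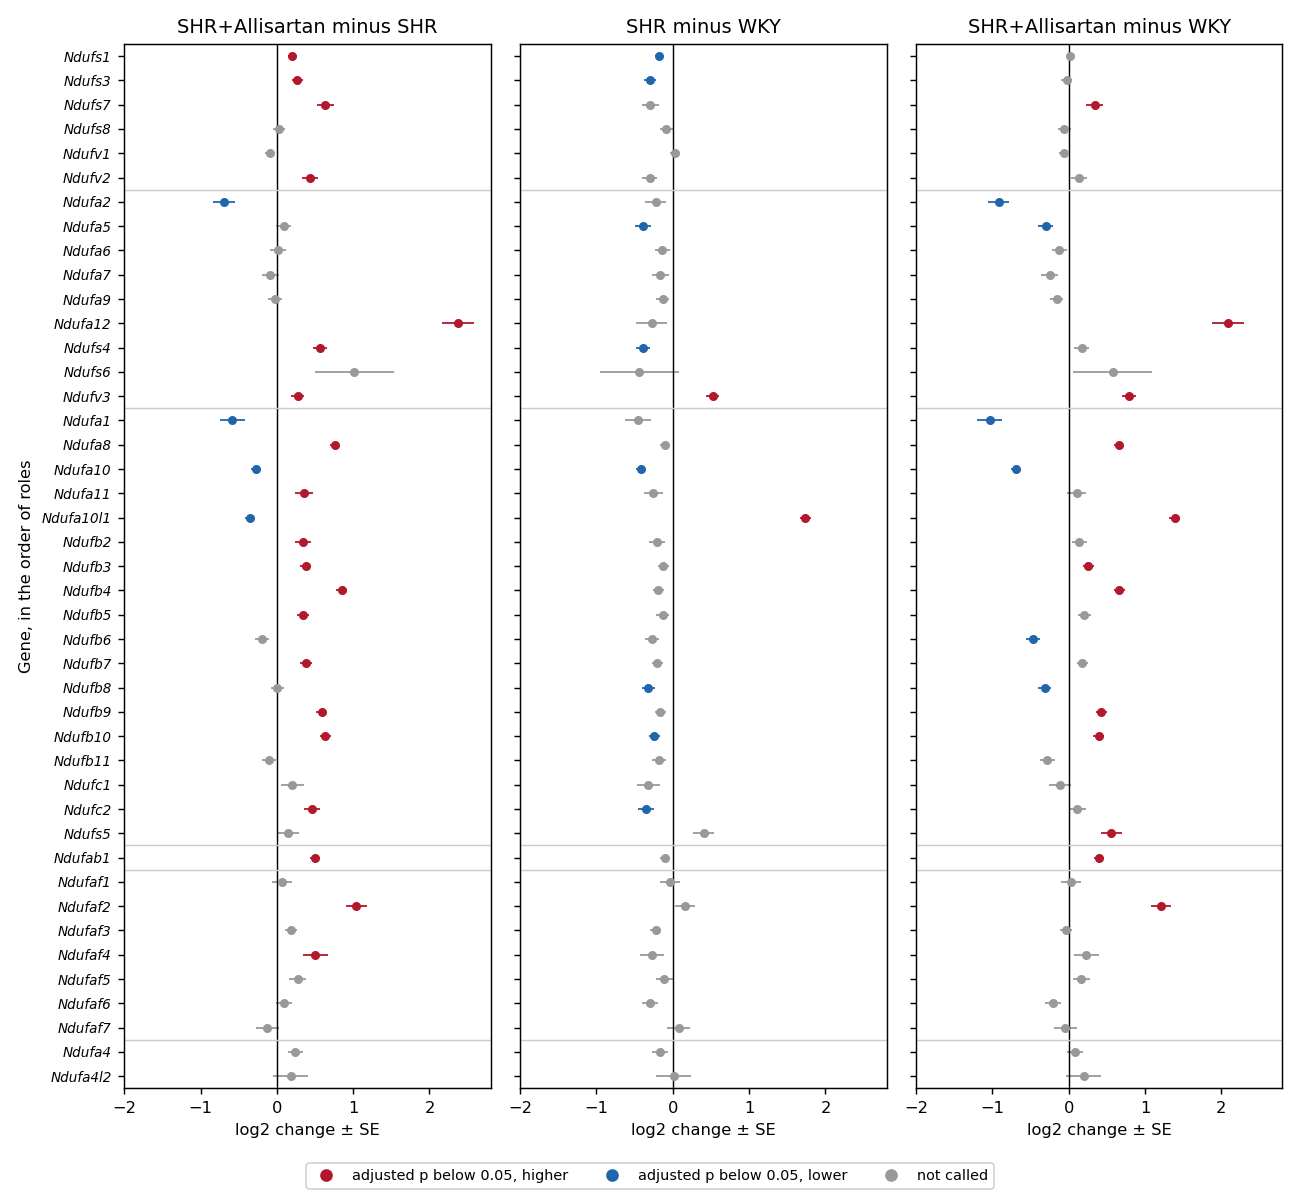
Log2 change ± SE (x axis) of 43 tested Nduf genes (y axis, ordered by role, with lines between roles) in SHR+Allisartan minus SHR, SHR minus WKY and SHR+Allisartan minus WKY. Red points are called higher and blue points lower at an adjusted p under 0.05, and Ndufa12 at 2.37 is the largest rise with allisartan.

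Levels of several lists of cell type markers, though not of all, differed between groups as well, and their part in the Nduf values was not tested. The summed level of 10 ventricular cardiomyocyte markers was 44695 to 46494 FPKM in SHR+Allisartan, 35394 to 36843 in SHR and 38937 to 41422 in WKY. This was the same order as the Nduf sum. Of the 10 markers, 6 were called higher and 2 lower in SHR+Allisartan than in SHR. In SHR against WKY 2 were higher and 3 lower, and in SHR+Allisartan against WKY 5 were higher and 1 lower. The 9 fibroblast markers summed to 458 to 524 FPKM in SHR+Allisartan, 794 to 848 in SHR and 433 to 479 in WKY. The 9 macrophage markers summed to 225 to 276 FPKM in SHR+Allisartan, 424 to 497 in SHR and 158 to 179 in WKY. Of 6 atrial markers, which summed to 267 to 527 in SHR+Allisartan, 3343 to 6064 in SHR and 1639 to 2080 in WKY, only Nppa was called lower in SHR+Allisartan than in SHR. The 8 smooth muscle and pericyte markers summed to 256 to 342 FPKM in SHR+Allisartan, 305 to 325 in SHR and 202 to 260.3 in WKY. Of these, 5 were higher in SHR than in WKY, 2 lower in SHR+Allisartan than in SHR and 3 higher in SHR+Allisartan than in WKY. The 8 endothelial markers summed to 152 to 167 in SHR+Allisartan, 153 to 165 in SHR and 153 to 173 in WKY, with 2 higher and 1 lower in SHR+Allisartan than in SHR. The 4 erythroid markers summed to 87.1 to 266 in SHR+Allisartan, 40.3 to 81.2 in SHR and 73.0 to 130.4 in WKY, and all 4 were called in SHR+Allisartan against SHR, Hbb, Alas2 and Slc4a1 higher and Hba-a1, listed at 0 in SHR+Allisartan, lower. The 6 fat markers summed to 45.8 to 47.6 in SHR+Allisartan, 33.7 to 43.9 in SHR and 81.4 to 110.2 in WKY. Of these, Ucp1, Adipoq, Plin1 and Lep stayed below 0.5 FPKM in every library, Cidea was lower in both SHR groups than in WKY and Cfd higher in both. Of 6 skeletal muscle markers 5 stayed below 0.5 FPKM, and the other, Tnnt3, was higher in both SHR groups than in WKY. Over all tested genes 33.5% were called in SHR+Allisartan against SHR, 21.9% in SHR against WKY and 24.3% in SHR+Allisartan against WKY. In bulk tissue, fewer cells of a type and less RNA per cell cannot be told apart.

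**Figure D3:**
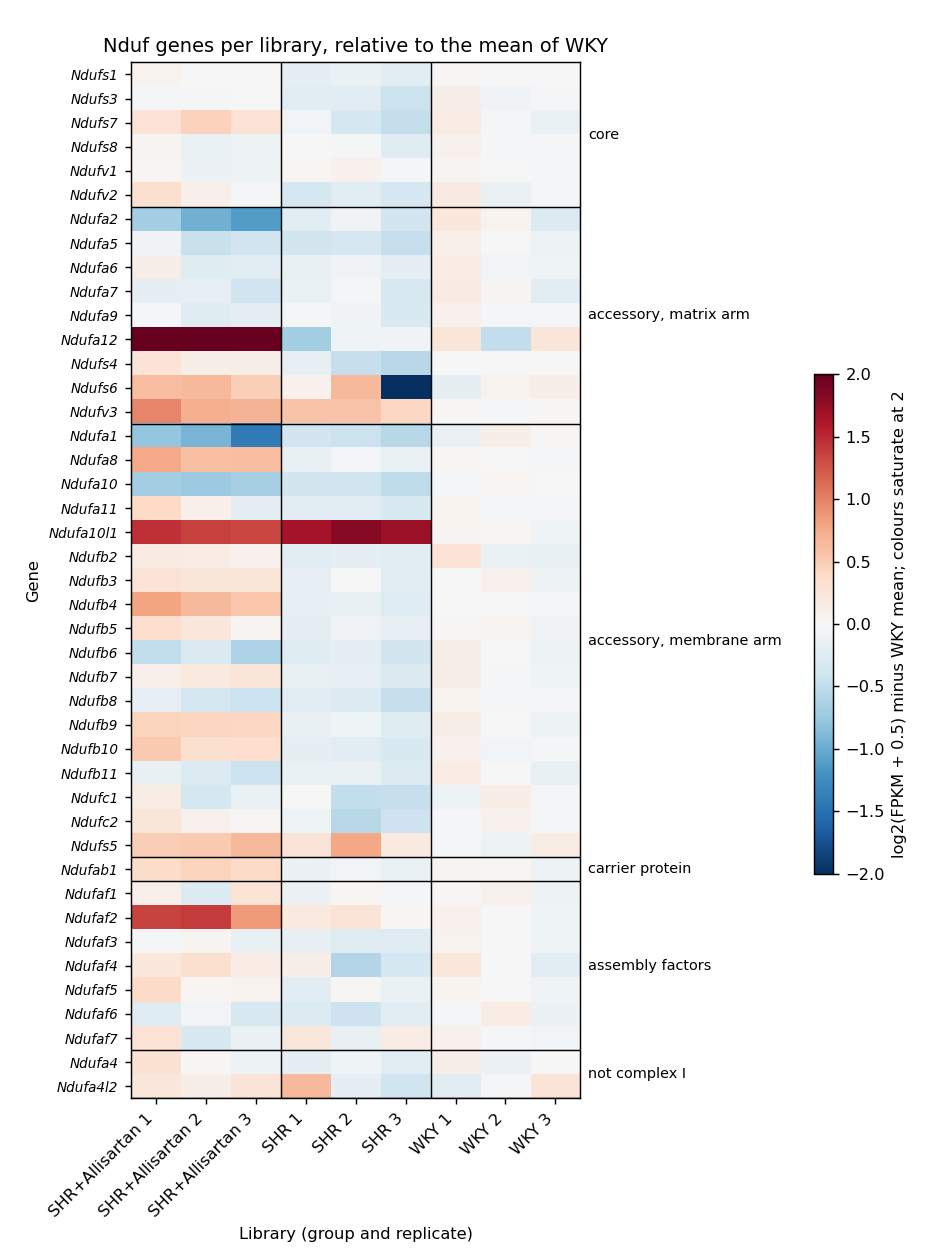
Level of 43 Nduf genes (rows, by role) in each library (columns) as log2(rescaled FPKM + 0.5) minus the mean of the 3 WKY libraries, with colours that saturate at 2. Most genes are pale blue in SHR and pale red in SHR+Allisartan, and Ndufa12, Ndufaf2 and Ndufa10l1 stand out in red.

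Promoters are shown for 5 members whose levels moved differently: Ndufa12 with the largest rise in SHR+Allisartan against SHR, Ndufb4 with the smallest p, Ndufs4 and Ndufs7 as further rises, and Ndufa2 with the largest fall. Each sequence is that of RefSeq assembly GRCr8, from 150 bases before the annotated start to 30 after it, written 5′ to 3′ in the direction of transcription. Capitals mark a match to the ETS motif CCGGAAG (bound by GABPA) or the YY1 motif AAGATGGCG on either strand. The file's own build is Rnor_6.0, so no position was set against the expression table. Ndufa12 is chr7:30658166-30658345 on the plus strand and Ndufb4 chr11:76569028-76569207 on the plus strand. Ndufs4 is chr2:47794885-47795064, Ndufs7 chr7:10110469-10110648 and Ndufa2 chr18:28631855-28632034, all on the minus strand.
Ndufa12: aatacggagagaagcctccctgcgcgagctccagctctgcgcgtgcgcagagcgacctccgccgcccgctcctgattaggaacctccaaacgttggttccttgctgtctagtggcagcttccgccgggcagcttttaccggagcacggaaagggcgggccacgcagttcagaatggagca
Ndufb4: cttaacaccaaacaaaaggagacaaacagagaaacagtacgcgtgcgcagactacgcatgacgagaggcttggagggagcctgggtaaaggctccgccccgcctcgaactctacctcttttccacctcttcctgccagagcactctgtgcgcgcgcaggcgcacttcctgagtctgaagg
Ndufs4: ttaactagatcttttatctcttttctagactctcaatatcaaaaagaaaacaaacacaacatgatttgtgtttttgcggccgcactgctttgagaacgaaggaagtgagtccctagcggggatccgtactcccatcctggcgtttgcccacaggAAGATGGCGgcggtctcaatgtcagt
Ndufs7: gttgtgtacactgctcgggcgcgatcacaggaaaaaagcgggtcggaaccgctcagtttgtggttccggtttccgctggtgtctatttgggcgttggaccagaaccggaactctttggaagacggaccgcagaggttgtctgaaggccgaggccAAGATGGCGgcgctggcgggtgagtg
Ndufa2: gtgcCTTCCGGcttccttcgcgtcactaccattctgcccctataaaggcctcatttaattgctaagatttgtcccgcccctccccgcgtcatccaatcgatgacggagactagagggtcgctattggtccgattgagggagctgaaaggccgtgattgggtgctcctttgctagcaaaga

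The windows of Ndufs4 and Ndufs7 hold the YY1 motif just after the start, where its letters include an ATG. The printed stretch of Ndufa2 holds the ETS motif on the opposite strand, near its upstream end, and its YY1 letters lie outside that stretch. No searched motif stands in the windows of Ndufa12 and Ndufb4. Promoters of 300 bases, 250 before and 50 after the start, were found for 39 of the 45 genes and searched on both strands for 5 motifs. The YY1 letters stood in 6 of 39 (15.4%), beside 3.61% of 10526 promoters of tested genes. The shorter form GCGCATG of the motif of NRF1, a regulator of respiratory genes, stood in 6 of 39 (15.4%) beside 6.82%, and the full palindromic NRF1 motif, which contains it, in 3 of 39 (7.69%) beside 1.85%. The ETS letters stood in 7 of 39 (17.9%) beside 17.5%, and the motif TCAAGGTCA of oestrogen-related receptors in 0 of 39 beside 0.285%. A match of letters is a description, and no binding was measured here. The genes with the YY1 letters, Ndufa2, Ndufa6, Ndufa9, Ndufb8, Ndufs4 and Ndufs7, included rises, falls and no call in SHR+Allisartan against SHR.

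Of the 7 core subunits, 4 were called higher and 0 lower in SHR+Allisartan than in SHR, with a median log2 change of 0.20. In SHR against WKY 0 were higher and 2 lower (median -0.18), and the median in SHR+Allisartan against WKY was 0.022. The shares called, 57.1% and 28.6% in the first 2 comparisons, stand beside 33.5% and 21.9% of all tested genes. Group means of the core subunits ran from 112 FPKM for Ndufs8 in SHR to 704 FPKM for Ndufv2 in SHR+Allisartan.

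At the NADH end, Ndufv1 holds the flavin cofactor and the NADH site. Its row had 565, 511 and 515 FPKM in SHR+Allisartan, 566, 584 and 536 in SHR and 575, 546 and 535 in WKY. These overlapped in all 3 comparisons, and the log2 changes were -0.085 (adjusted p = 0.352) for SHR+Allisartan against SHR, 0.025 (adjusted p = 0.824) for SHR against WKY and -0.059 (adjusted p = 0.551) for SHR+Allisartan against WKY. Ndufv1 in SHR+Allisartan against SHR passed with quantile normalization and with cyclic loess, at a log2 change of -0.21 to -0.18 and an adjusted p of 0.00787 to 0.0292. Ndufv2, its partner with an iron-sulphur cluster, had 798, 685 and 629 FPKM in SHR+Allisartan, 499, 552 and 505 in SHR and 720.5, 585 and 620.0 in WKY. The SHR libraries were the 3 lowest of the 9. Ndufv2 was higher in SHR+Allisartan than in SHR by 0.44 log2 units (SE 0.101, adjusted p = 0.00800), while SHR differed from WKY by -0.30 log2 units (adjusted p = 0.0549) and SHR+Allisartan from WKY by 0.13 log2 units (adjusted p = 0.381). The SHR against WKY difference in Ndufv2 passed the threshold with an adjusted p of 0.0318 to 0.0426 without SHR+Allisartan replicates 1 or 3. Ndufv2 in SHR against WKY passed with the trend by genomic span removed and with a replicate block. It also passed in a fit to the 6 libraries of the comparison. The log2 changes were -0.32 to -0.30, at an adjusted p of 0.0389 to 0.0413. Ndufs1, the largest subunit and carrier of several clusters, had 473, 453 and 448 FPKM in SHR+Allisartan, 395, 413 and 387 in SHR and 458, 447 and 447 in WKY. Again the SHR libraries were the 3 lowest, by little. The log2 change of Ndufs1 was 0.20 (SE 0.0565, adjusted p = 0.0190) for SHR+Allisartan against SHR and -0.18 (SE 0.0565, adjusted p = 0.0433) for SHR against WKY, with 0.022 (adjusted p = 0.812) between SHR+Allisartan and WKY. Both calls were fragile, with an adjusted p of 0.0515 to 0.0684 without SHR+Allisartan replicate 1 or SHR replicates 1 or 3 in the first and 0.0506 to 0.140 without SHR+Allisartan replicates 2 or 3, SHR replicates 1, 2 or 3 or WKY replicates 1, 2 or 3 in the second. Ndufs1 in SHR+Allisartan against SHR lost its call without rescaling, with quantile normalization and with cyclic loess, at a log2 change of 0.082 to 0.14 and an adjusted p of 0.0781 to 0.245. Ndufs1 in SHR against WKY lost its call without rescaling, with quantile normalization, with cyclic loess and in a fit to the 6 libraries of the comparison, at a log2 change of -0.18 to -0.07 and an adjusted p of 0.0628 to 0.354.

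Nearer the quinone site, Ndufs3 is a core protein of the connecting module. It had 307, 305 and 315 FPKM in SHR+Allisartan, 269, 268 and 233 in SHR and 341, 299.9 and 306 in WKY. The SHR libraries lay below all others. Ndufs3 was higher in SHR+Allisartan than in SHR by 0.27 (SE 0.0751, adjusted p = 0.0186), lower in SHR than in WKY by a log2 change of -0.30 (SE 0.0751, adjusted p = 0.0172), and -0.027 (adjusted p = 0.826) apart between SHR+Allisartan and WKY. The first call was lost with an adjusted p of 0.0730 without SHR replicate 3, and the second with 0.0567 to 0.0697 without SHR replicate 3 or WKY replicate 1. Ndufs3 in SHR+Allisartan against SHR lost its call without rescaling, with quantile normalization and with cyclic loess, at a log2 change of 0.16 to 0.21 and an adjusted p of 0.0553 to 0.0793. Ndufs7, which holds the last iron-sulphur cluster before the quinone and has the YY1 letters in its promoter window, had 258, 291 and 259 FPKM in SHR+Allisartan, 204, 167 and 152 in SHR and 235, 209 and 193 in WKY. All SHR+Allisartan libraries lay above all others, and SHR and WKY overlapped. It was higher in SHR+Allisartan than in SHR by 0.64 log2 units (SE 0.110, adjusted p = 0.00169), the largest change of a core subunit, and higher than in WKY by 0.34 log2 units (SE 0.110, adjusted p = 0.0450). In SHR against WKY it changed by -0.29 log2 units (adjusted p = 0.0842). The call against WKY was lost with an adjusted p of 0.0606 to 0.140 without SHR+Allisartan replicates 1, 2 or 3, SHR replicate 2 or WKY replicates 2 or 3, and SHR against WKY passed with 0.0171 without SHR replicate 1. Ndufs8, which carries clusters between Ndufs1 and Ndufs7, had 123, 108 and 110.4 FPKM in SHR+Allisartan, 119.5, 115 and 100.2 in SHR and 125, 115 and 115 in WKY. Its groups overlapped throughout, with log2 changes of 0.029 (adjusted p = 0.817), -0.086 (adjusted p = 0.508) and -0.057 (adjusted p = 0.659) in SHR+Allisartan against SHR, SHR against WKY and SHR+Allisartan against WKY.

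**Figure D4:**
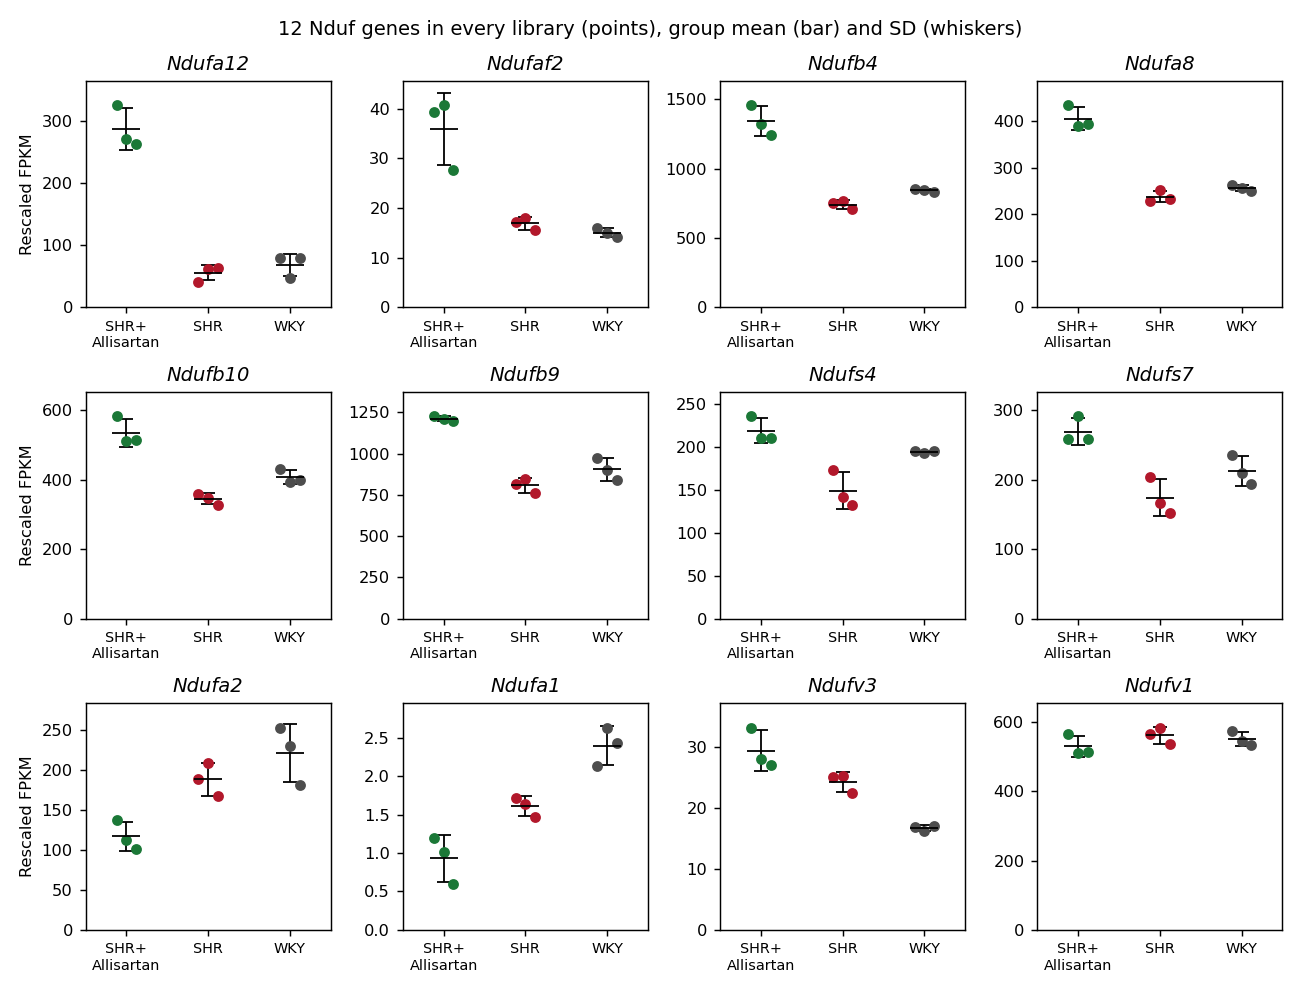
Rescaled FPKM (y axes, each starting at 0) of 12 Nduf genes in every library (points), with group mean (bar) and SD (whiskers), for SHR+Allisartan, SHR and WKY. Ndufa12 separates SHR+Allisartan from the other groups most widely, Ndufa2 and Ndufa1 are lowest in SHR+Allisartan, and Ndufv1 overlaps in all groups.

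Among the 9 accessory subunits of the matrix arm, 3 were higher and 1 lower in SHR+Allisartan than in SHR, 1 was higher and 2 were lower in SHR than in WKY, and 2 were higher and 2 lower in SHR+Allisartan than in WKY. The medians were 0.088, -0.23 and -0.12 on the log2 scale in that order. The shares called, 44.4%, 33.3% and 44.4%, stand beside 33.5%, 21.9% and 24.3% of all tested genes. The largest change of all Nduf genes was among these matrix-arm subunits. Ndufa12, a late-joining subunit that takes the place of the assembly factor Ndufaf2 on the maturing complex, had 325, 271 and 263 FPKM in SHR+Allisartan, 41.4, 62.6 and 63.1 in SHR and 78.8, 47.2 and 79.0 in WKY. The lowest SHR+Allisartan library was over 3 times the highest library of any other group, and SHR and WKY overlapped. Ndufa12 was higher in SHR+Allisartan than in SHR by 2.37 log2 units (SE 0.208, adjusted p = 4.17e-05) and than in WKY by 2.09 log2 units (SE 0.208, adjusted p = 1.09e-04), and SHR differed from WKY by -0.28 log2 units (adjusted p = 0.378). Neither call was lost when any library was left out. In the order of genes in RefSeq, Fgd6, Nr2c1, Tmcc3 and Cep83 lie around Ndufa12. They were looked at after the change of Ndufa12 was known. Their log2 changes in SHR+Allisartan against SHR were -0.39, -0.14, 0.31 and 0.48, of which only that of Cep83 was called (adjusted p = 4.92e-04). In SHR+Allisartan against WKY they were -0.18, -0.19, 0.66 and 0.42. Those of Tmcc3 (adjusted p = 0.0153) and Cep83 (adjusted p = 0.00146) were called.

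Ndufs4, an accessory subunit whose loss causes Leigh syndrome in humans and whose promoter window holds the YY1 letters, had 235, 210.1 and 210.2 FPKM in SHR+Allisartan, 173, 141 and 132 in SHR and 195, 192 and 195 in WKY. The 3 groups did not overlap, with SHR lowest and SHR+Allisartan highest. The log2 change was 0.56 (SE 0.0939, adjusted p = 0.00136) for SHR+Allisartan against SHR, -0.39 (SE 0.0939, adjusted p = 0.0135) for SHR against WKY and 0.17 (adjusted p = 0.219) for SHR+Allisartan against WKY. The SHR against WKY call was lost with an adjusted p of 0.0532 to 0.0582 without SHR replicates 2 or 3. Ndufv3, a small subunit at the NADH end, had 33.2, 28.1 and 26.9 FPKM in SHR+Allisartan, 25.1, 25.1 and 22.3 in SHR and 16.9, 16.2 and 17.0 in WKY. Unlike most members it was lowest in WKY, and the groups did not overlap. It was higher in SHR than in WKY by 0.52 log2 units (SE 0.0896, adjusted p = 0.00251), higher in SHR+Allisartan than in WKY by 0.79 log2 units (SE 0.0896, adjusted p = 2.23e-04), and higher in SHR+Allisartan than in SHR by 0.27 log2 units (SE 0.0896, adjusted p = 0.0390). That last call was lost with an adjusted p of 0.0517 to 0.139 without SHR+Allisartan replicates 1 or 2, SHR replicates 1, 2 or 3 or WKY replicates 2 or 3. Ndufv3 in SHR+Allisartan against SHR lost its call without rescaling, with quantile normalization, with cyclic loess and in a fit to the 6 libraries of the comparison, at a log2 change of 0.21 to 0.27 and an adjusted p of 0.0646 to 0.0798.

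Ndufa2, an accessory subunit with a thioredoxin-like fold, went the other way. It had 137, 113 and 101 FPKM in SHR+Allisartan, 189, 209 and 168 in SHR and 254, 230.4 and 182 in WKY. The SHR+Allisartan libraries were the 3 lowest of the 9, and SHR and WKY overlapped. The log2 change of Ndufa2 was -0.69 (SE 0.140, adjusted p = 0.00397) in SHR+Allisartan against SHR, -0.92 (SE 0.140, adjusted p = 0.00126) against WKY, and -0.23 (adjusted p = 0.280) in SHR against WKY. Ndufa5, another small matrix-arm subunit, had 722, 555 and 579 FPKM in SHR+Allisartan, 586, 600.2 and 549.7 in SHR and 814, 756 and 707 in WKY. SHR lay below WKY without overlap, and SHR+Allisartan overlapped both. It was lower in SHR than in WKY by a log2 change of -0.39 (SE 0.0987, adjusted p = 0.0173) and lower in SHR+Allisartan than in WKY by -0.30 (SE 0.0987, adjusted p = 0.0474), with 0.088 (adjusted p = 0.524) between SHR+Allisartan and SHR. These 2 calls were lost with an adjusted p of 0.0517 to 0.0696 without SHR replicate 3 or WKY replicates 1 or 2 and of 0.0522 to 0.168 without SHR+Allisartan replicates 2 or 3, SHR replicates 1, 2 or 3 or WKY replicates 1, 2 or 3. Ndufa5 in SHR+Allisartan against WKY lost its call with quantile normalization and in a fit to the 6 libraries of the comparison, at a log2 change of -0.31 to -0.23 and an adjusted p of 0.0610 to 0.0775. For Ndufa6, Ndufa7 and Ndufa9, subunits of the same arm, no comparison was called. Their group means were 361, 289 and 320.3 FPKM in SHR+Allisartan, 355, 306 and 326 in SHR, and 391, 344 and 356 in WKY. For Ndufa7 the adjusted p of SHR+Allisartan against WKY was 0.0447 without WKY replicate 3. Ndufa7 in SHR+Allisartan against WKY passed with quantile normalization and with a replicate block. The log2 changes were -0.27 and -0.25, at adjusted p values of 0.0384 and 0.0212.

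Among the 18 tested accessory subunits of the membrane arm, 10 were higher and 3 lower in SHR+Allisartan than in SHR (median log2 change 0.34). Against WKY, SHR had 1 higher and 4 lower (median -0.20), and SHR+Allisartan had 7 higher and 4 lower (median 0.16). Of these membrane-arm genes 72.2%, 27.8% and 61.1% were called in the 3 comparisons in turn, beside 33.5%, 21.9% and 24.3% of all tested genes. Ndufb4, a subunit of the distal part of this arm, was with Ndufb9 among the 2 complex I genes with the highest mean level in each group. It had 1456, 1321 and 1243 FPKM in SHR+Allisartan, 751, 766 and 706 in SHR and 854, 848 and 835 in WKY. The groups did not overlap, with SHR lowest and SHR+Allisartan highest. Ndufb4 was higher in SHR+Allisartan than in SHR by 0.85 log2 units (SE 0.0702, adjusted p = 3.11e-05) and than in WKY by 0.66 log2 units (SE 0.0702, adjusted p = 1.61e-04). The SHR against WKY change was -0.19 log2 units (adjusted p = 0.0778). Its adjusted p was 0.0468 without SHR+Allisartan replicate 1 and 0.04855 with a replicate block. Ndufa8, a disulphide-rich subunit on the intermembrane-space face, had 435, 390.0 and 394 FPKM in SHR+Allisartan, 229.9, 252 and 233 in SHR and 263, 256 and 249.5 in WKY. All SHR+Allisartan libraries lay above all others, and SHR and WKY overlapped. The log2 change of Ndufa8 was 0.77 (SE 0.0662, adjusted p = 3.95e-05) against SHR, 0.66 (SE 0.0662, adjusted p = 1.10e-04) against WKY, and -0.10 (adjusted p = 0.291) for SHR against WKY.

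Ndufb10, like Ndufa8 a subunit of the intermembrane-space face, had 583, 511 and 515 FPKM in SHR+Allisartan, 359, 348 and 328 in SHR and 430.3, 394 and 398 in WKY. No groups overlapped, with SHR lowest. It was higher in SHR+Allisartan than in SHR by 0.63 (SE 0.0722, adjusted p = 1.68e-04) and than in WKY by 0.39 (SE 0.0722, adjusted p = 0.00345), and lower in SHR than in WKY by a log2 change of -0.24 (SE 0.0722, adjusted p = 0.0369). The last of these was lost with an adjusted p of 0.0613 to 0.133 without SHR replicates 2 or 3 or WKY replicates 1, 2 or 3. Ndufb10 in SHR against WKY lost its call without rescaling, with quantile normalization and with cyclic loess, at a log2 change of -0.19 to -0.13 and an adjusted p of 0.0570 to 0.114. Ndufb9, a subunit that binds an acyl carrier protein, had 1225, 1212 and 1196 FPKM in SHR+Allisartan, 814, 847 and 759 in SHR and 974, 897 and 839.9 in WKY. The SHR+Allisartan libraries lay above all others and within a narrow range. Ndufb9 changed by 0.59 log2 units (SE 0.0711, adjusted p = 2.33e-04) in SHR+Allisartan against SHR and by 0.42 log2 units (SE 0.0711, adjusted p = 0.00210) against WKY, both calls upward, and by -0.16 log2 units (adjusted p = 0.130) in SHR against WKY. Ndufab1, the acyl carrier protein that sits in both arms and also serves mitochondrial fatty acid synthesis, had 93.6, 99.0 and 94.9 FPKM in SHR+Allisartan, 66.9, 69.5 and 65.9 in SHR and 75.4, 74.8 and 67.7 in WKY. Here too the SHR+Allisartan libraries were the 3 highest. The changes were 0.50 log2 units (SE 0.0646, adjusted p = 3.19e-04) against SHR and 0.40 log2 units (SE 0.0646, adjusted p = 0.00172) against WKY, with -0.11 log2 units (adjusted p = 0.275) for SHR against WKY.

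Smaller rises with allisartan were called in 6 further membrane-arm genes. Ndufc2 averaged 364 ± 29.1 FPKM in SHR+Allisartan, 266 ± 44.3 in SHR and 336 ± 18.9 in WKY (SD), with a log2 change of 0.46 (adjusted p = 0.00872) in SHR+Allisartan against SHR and -0.35 (adjusted p = 0.0431) in SHR against WKY. The second of these calls was lost with an adjusted p of 0.0577 to 0.154 without SHR+Allisartan replicate 2, SHR replicates 2 or 3 or WKY replicates 1, 2 or 3. Ndufc2 in SHR against WKY lost its call without rescaling, with quantile normalization, with cyclic loess and in a fit to the 6 libraries of the comparison, at a log2 change of -0.35 to -0.25 and an adjusted p of 0.0515 to 0.118. Ndufb3, Ndufb5 and Ndufb7 were higher in SHR+Allisartan than in SHR by 0.38, 0.34 and 0.38 on the log2 scale, and none of these 3 calls was lost without any library. Ndufb3 was also higher in SHR+Allisartan than in WKY, by 0.25 log2 units (adjusted p = 0.0270), and that adjusted p became 0.0503 to 0.0901 without SHR+Allisartan replicates 1, 2 or 3 or WKY replicates 1 or 3. Against WKY, the adjusted p of SHR+Allisartan was 0.0238 without SHR+Allisartan replicate 3 for Ndufb5 and 0.0440 without WKY replicate 1 for Ndufb7. Ndufb5 in SHR+Allisartan against WKY passed with quantile normalization and with cyclic loess, at a log2 change of 0.20 and an adjusted p of 0.0407 to 0.0408. Ndufb7 in SHR against WKY passed with the trend by genomic span removed, at a log2 change of -0.21 and an adjusted p of 0.0420. Ndufa11 and Ndufb2 were higher in SHR+Allisartan than in SHR by 0.36 log2 units (adjusted p = 0.0455) and 0.34 log2 units (adjusted p = 0.0243). The adjusted p of Ndufa11 became 0.0526 to 0.125 without SHR+Allisartan replicates 1 or 2, SHR replicates 1, 2 or 3 or WKY replicates 1, 2 or 3. Ndufa11 in SHR+Allisartan against SHR lost its call without rescaling, with cyclic loess, with the trend by genomic span removed and in a fit to the 6 libraries of the comparison, at a log2 change of 0.22 to 0.36 and an adjusted p of 0.0523 to 0.109. Ndufa11 in SHR against WKY passed in a fit to the 6 libraries of the comparison, at a log2 change of -0.25 and an adjusted p of 0.0258. The adjusted p of Ndufb2 became 0.0548 to 0.0673 without SHR+Allisartan replicates 1 or 2 or SHR replicates 1, 2 or 3. For Ndufb2 the comparison of SHR+Allisartan with WKY passed at 0.0133 without WKY replicate 1.

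Ndufb6 and Ndufb8 were at their highest in WKY. Ndufb8 averaged 373 ± 35.9 FPKM in SHR+Allisartan, 371 ± 32.4 in SHR and 462 ± 18.0 in WKY (SD), and was lower in SHR than in WKY by a log2 change of -0.32 (adjusted p = 0.0230) and in SHR+Allisartan than in WKY by -0.31 (adjusted p = 0.0237). Both calls were lost, the first with an adjusted p of 0.0508 to 0.0948 without SHR replicates 2 or 3 or WKY replicates 1 or 2 and the second of 0.0521 to 0.0794 without SHR+Allisartan replicates 2 or 3 or WKY replicates 1 or 2. Ndufb6 averaged 159.6 ± 19.2 FPKM in SHR+Allisartan, 182 ± 10.8 in SHR and 219.8 ± 16.9 in WKY (SD). It was lower in SHR+Allisartan than in WKY by a log2 change of -0.46 (adjusted p = 0.00566), and SHR differed from WKY by -0.27 (adjusted p = 0.0630), with an adjusted p of 0.0409 to 0.0434 without SHR+Allisartan replicates 2 or 3. Its change in SHR+Allisartan against SHR, -0.19 log2 units (adjusted p = 0.135), passed at 0.0448 without SHR+Allisartan replicate 2. Ndufb6 in SHR+Allisartan against SHR passed with quantile normalization and with cyclic loess, at a log2 change of -0.31 to -0.29 and an adjusted p of 0.0192 to 0.0202. Ndufb6 in SHR against WKY passed with the trend by genomic span removed and with a replicate block. It also passed in a fit to the 6 libraries of the comparison. The log2 changes were -0.29 to -0.27, at an adjusted p of 0.0280 to 0.0432. Ndufb11 and Ndufc1 were called in no comparison, with log2 changes of -0.10 and 0.20 in SHR+Allisartan against SHR. For Ndufb11 in SHR+Allisartan against WKY the adjusted p was 0.0323 to 0.0349 without SHR+Allisartan replicate 1 or WKY replicate 3, and for Ndufc1 in SHR against WKY it was 0.0287 without SHR replicate 1. Ndufb11 in SHR+Allisartan against SHR passed with quantile normalization and with cyclic loess, at a log2 change of -0.21 and an adjusted p of 0.0346 to 0.0352. Ndufb11 in SHR+Allisartan against WKY passed without rescaling, with quantile normalization, with cyclic loess and with the trend by genomic span removed. It also passed with array weights and with a replicate block. The log2 changes were -0.32 to -0.27, at an adjusted p of 0.00724 to 0.0466.

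Ndufa1, a small membrane protein needed for assembly, was listed at a far lower level than its neighbours in the enzyme. It had 1.19, 1.02 and 0.594 FPKM in SHR+Allisartan, 1.72, 1.65 and 1.47 in SHR and 2.13, 2.64 and 2.44 in WKY. The groups did not overlap, with SHR+Allisartan lowest and WKY highest. The log2 change was -0.58 (SE 0.168, adjusted p = 0.0218) in SHR+Allisartan against SHR, -1.04 (SE 0.168, adjusted p = 0.00171) against WKY and -0.45 (adjusted p = 0.0774) in SHR against WKY. The first call was lost with an adjusted p of 0.0590 to 0.0603 without SHR+Allisartan replicate 3 or SHR replicates 1 or 2, and the last difference passed with 0.0305 without SHR+Allisartan replicate 3. Ndufa1 in SHR+Allisartan against SHR lost its call with quantile normalization and with cyclic loess, at a log2 change of -0.49 to -0.48 and an adjusted p of 0.0516 to 0.0630. Ndufa1 in SHR against WKY passed with array weights and in a fit to the 6 libraries of the comparison, at a log2 change of -0.48 to -0.45 and an adjusted p of 0.0318 to 0.0401. The calls of Ndufa1 in SHR+Allisartan against SHR and against WKY were also lost when the row of a near copy, LOC108348144, was added to it, at adjusted p values of 0.227 against SHR and 0.222 against WKY.

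Of the 7 assembly factors with an Nduf name, 2 were higher and 0 lower in SHR+Allisartan than in SHR, 0 were called in SHR against WKY, and 1 was higher and 0 lower in SHR+Allisartan than in WKY (medians 0.19, -0.11 and 0.031). The shares called, 28.6%, 0% and 14.3%, were below the 33.5%, 21.9% and 24.3% of all tested genes. Ndufaf2, a paralogue of Ndufa12 that holds its place during assembly, had 39.3, 40.7 and 27.6 FPKM in SHR+Allisartan, 17.2, 18.1 and 15.5 in SHR and 16.0, 15.0 and 14.2 in WKY. All SHR+Allisartan libraries lay above all others, with replicate 3 the lowest of them, and SHR and WKY overlapped. It was higher in SHR+Allisartan than in SHR by 1.04 log2 units (SE 0.134, adjusted p = 3.20e-04) and than in WKY by 1.21 log2 units (SE 0.134, adjusted p = 2.02e-04), with 0.16 log2 units (adjusted p = 0.423) for SHR against WKY. Ndufaf2 and its paralogue Ndufa12 were thus the 2 members with the largest rise in SHR+Allisartan against SHR. Ndufaf4, which works in a pair with Ndufaf3, averaged 26.0 ± 1.60 FPKM in SHR+Allisartan, 18.6 ± 4.87 in SHR and 22.2 ± 3.24 in WKY (SD) and changed by 0.50 log2 units (adjusted p = 0.0347) in SHR+Allisartan against SHR. That call was lost with an adjusted p of 0.0513 to 0.130 without SHR+Allisartan replicates 1, 2 or 3 or SHR replicates 2 or 3, and SHR against WKY passed at 0.0286 without SHR replicate 1. For Ndufaf3 the changes were 0.19 log2 units (adjusted p = 0.0804) in SHR+Allisartan against SHR and -0.22 log2 units (adjusted p = 0.0568) in SHR against WKY. Without SHR+Allisartan replicate 3 both passed, at adjusted p values of 0.0404 and 0.0475. Ndufaf3 in SHR against WKY passed with the trend by genomic span removed, with array weights and with a replicate block. The log2 changes were -0.24 to -0.22, at an adjusted p of 0.0330 to 0.04625. Ndufaf1, Ndufaf5, Ndufaf6 and Ndufaf7, of which Ndufaf5 hydroxylates Ndufs7, were called in no comparison. Their log2 changes in SHR+Allisartan against SHR were 0.066, 0.27, 0.091 and -0.13. Ndufaf6 in SHR against WKY passed with quantile normalization, with the trend by genomic span removed and with array weights, at a log2 change of -0.33 to -0.31 and an adjusted p of 0.0331 to 0.0484.

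The 2 Nduf-named genes outside complex I were called in no comparison. Ndufa4, whose protein belongs to cytochrome c oxidase in human cells, had 1394, 1145 and 1053 FPKM in SHR+Allisartan, 986, 1059 and 970.0 in SHR and 1216, 1039 and 1129 in WKY. The groups overlapped in every comparison, with log2 changes of 0.24 (adjusted p = 0.0899) in SHR+Allisartan against SHR, -0.16 (adjusted p = 0.280) in SHR against WKY and 0.079 (adjusted p = 0.613) in SHR+Allisartan against WKY. The first passed at an adjusted p of 0.0319 without SHR+Allisartan replicate 3. Ndufa4l2, its hypoxia-inducible paralogue, had 4.93, 4.55 and 5.08 FPKM in SHR+Allisartan, 6.78, 3.57 and 3.04 in SHR and 3.52, 4.06 and 5.05 in WKY. SHR replicate 1 was the highest of the 9 libraries. The changes of Ndufa4l2 were 0.18 log2 units (adjusted p = 0.579), 0.015 log2 units (adjusted p = 0.970) and 0.20 log2 units (adjusted p = 0.572) in the same order, and the first passed at 0.0323 without SHR replicate 1.

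Several Nduf rows share sequence with other rows, and how the authors' counting divided such reads is not given in the sources used here. RefSeq (assembly GRCr8) lists another copy, by name, for 22 of the 45 genes, and another gene overlaps the span of 15 of the 45. Whether the counting used the strand of the reads is not given either. The rows summed below were chosen after their values were seen. Ndufa10, a kinase-like subunit of the membrane arm, had 55.1, 53.2 and 55.8 FPKM in SHR+Allisartan, 68.8, 67.4 and 62.6 in SHR and 87.2, 91.3 and 88.1 in WKY. Its groups did not overlap, with SHR+Allisartan lowest and WKY highest, and the log2 change was -0.27 (SE 0.0619, adjusted p = 0.00690) in SHR+Allisartan against SHR, -0.42 (SE 0.0619, adjusted p = 0.00104) in SHR against WKY and -0.69 (SE 0.0619, adjusted p = 5.46e-05) in SHR+Allisartan against WKY. Ndufa10l1, named for its likeness to Ndufa10, had 73.1, 68.9 and 67.0 FPKM in SHR+Allisartan, 84.5, 94.1 and 88.5 in SHR and 27.4, 26.9 and 24.7 in WKY. These groups did not overlap either, but WKY was lowest and SHR highest. The changes of Ndufa10l1 were -0.35 log2 units (SE 0.0707, adjusted p = 0.00383), 1.74 log2 units (SE 0.0707, adjusted p = 3.62e-07) and 1.39 log2 units (SE 0.0707, adjusted p = 1.44e-06) in the same order. Summed, the pair had 128, 122 and 123 FPKM in SHR+Allisartan, 153, 162 and 151 in SHR and 115, 118 and 113 in WKY. The sum was higher in SHR than in WKY by 0.43 (adjusted p = 0.000626), so the lower call of Ndufa10 turned round. It was lower in SHR+Allisartan than in SHR by a log2 change of -0.32 (adjusted p = 0.00219), and 0.11 apart from WKY (adjusted p = 0.194). The direction of Ndufa10 in SHR against WKY thus differed between the row alone and the sum.

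Ndufs5, a subunit of the intermembrane-space face, had 60.5, 62.2 and 68.0 FPKM in SHR+Allisartan, 51.7, 73.9 and 48.8 in SHR and 41.9, 39.9 and 47.6 in WKY. SHR+Allisartan lay above WKY without overlap, and SHR overlapped SHR+Allisartan only. It was higher in SHR+Allisartan than in WKY by 0.56 log2 units (adjusted p = 0.0153), and changed by 0.15 log2 units (adjusted p = 0.433) against SHR and by 0.41 log2 units (adjusted p = 0.0579) in SHR against WKY. Only the first was a call, and whether each passed turned on single libraries. The adjusted p of the first became 0.0577 without WKY replicate 2. The second passed at 0.0286 without SHR replicate 2 and the third at 0.0362 without SHR replicate 3. Ndufs5 in SHR against WKY passed without rescaling and with array weights, at a log2 change of 0.46 to 0.47 and an adjusted p of 0.0326 to 0.0432. Most of the signal lay in LOC100363268, which RefSeq names Ndufs5-ps2, a pseudogene, at 489, 384 and 378 FPKM in SHR+Allisartan, 273, 350.4 and 340.1 in SHR and 319, 269 and 276 in WKY. With both rows summed, SHR+Allisartan was higher than SHR by 0.34 (adjusted p = 0.0394). Ndufa3 was listed at 0 throughout, while LOC684509, named Ndufa3-ps3 in RefSeq, had 113, 126 and 126 FPKM in SHR+Allisartan, 106, 129.7 and 96.1 in SHR and 126, 114 and 115 in WKY and was called in no comparison.

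**Figure D5:**
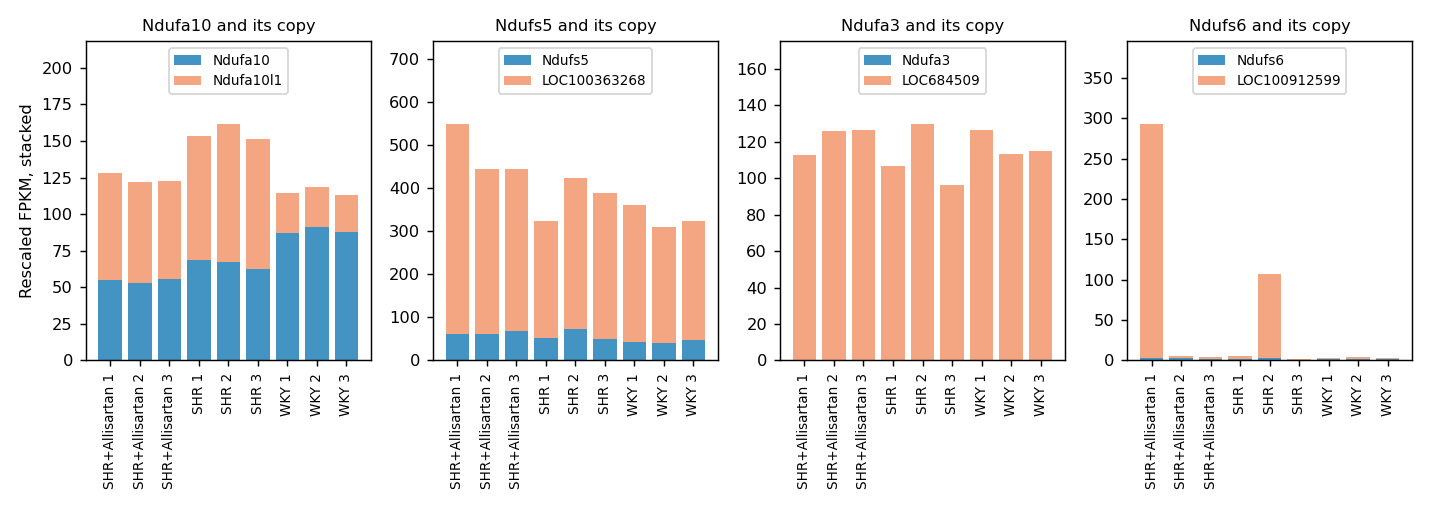
Rescaled FPKM per library (stacked bars from 0; lower part the Nduf gene, upper part its near copy) for Ndufa10 with Ndufa10l1, Ndufs5 with LOC100363268, Ndufa3 with LOC684509 and Ndufs6 with LOC100912599. Ndufa10 is largest in WKY while its sum with Ndufa10l1 is largest in SHR, and LOC100912599 is high in 2 of 9 libraries.

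The row called Ndufs6, a zinc-binding subunit that joins late, carries the gene identifier of Ndufs6-ps1, a pseudogene in the current RefSeq. It had 2.64, 2.74 and 2.36 FPKM in SHR+Allisartan, 1.68, 2.73 and 0 in SHR and 1.30, 1.66 and 1.74 in WKY, with SHR replicate 3 listed at 0. It was called in no comparison, with log2 changes of 1.01 (adjusted p = 0.157) for SHR+Allisartan against SHR, -0.44 (adjusted p = 0.595) for SHR against WKY and 0.58 (adjusted p = 0.455) for SHR+Allisartan against WKY. The first passed at an adjusted p of 0.0358 without SHR replicate 2 and the last at 0.0331 without SHR replicate 3. Ndufs6 in SHR+Allisartan against WKY passed in a fit to the 6 libraries of the comparison, at a log2 change of 0.57 and an adjusted p of 0.0189. The row that RefSeq names Ndufs6, LOC679739, had 0.587, 1.48 and 0.866 FPKM in SHR+Allisartan, 0.978, 1.22 and 0.438 in SHR and 1.02, 1.68 and 1.50 in WKY. Another row, LOC100912599, had 290.4, 2.96 and 1.73 FPKM in SHR+Allisartan, 3.67, 104 and 1.97 in SHR and 2.05, 2.40 and 1.50 in WKY, so SHR+Allisartan replicate 1 and SHR replicate 2 stood apart from the other 7 libraries. It was called in no comparison.

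Complex I genes that stand in the table under other symbols fell outside the rule. Ndufa13, a subunit of the membrane arm listed as LOC100911483, had 442, 408 and 378 FPKM in SHR+Allisartan, 367, 333 and 301 in SHR and 490.4, 411 and 406 in WKY. It was lower in SHR than in WKY by a log2 change of -0.38 (SE 0.0984, adjusted p = 0.0185) and higher in SHR+Allisartan than in SHR by 0.30 (SE 0.0984, adjusted p = 0.0395), with -0.087 (adjusted p = 0.560) against WKY. The assembly factor Ndufaf8, listed as LOC690871, had 170.4, 190.1 and 188 FPKM in SHR+Allisartan, 127, 102 and 111 in SHR and 119.8, 122 and 125 in WKY. All its SHR+Allisartan libraries lay above all others. It was higher in SHR+Allisartan than in SHR by 0.69 log2 units (SE 0.0839, adjusted p = 2.33e-04) and than in WKY by 0.58 log2 units (SE 0.0839, adjusted p = 0.000931), and SHR against WKY gave -0.11 log2 units (adjusted p = 0.385).

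The rest of the respiratory chain was counted from lists that follow textbook membership. In SHR+Allisartan against SHR, 3 of 4 genes of complex II were higher and 0 lower, with Sdhb, the iron-sulphur subunit, at 0.43 log2 units (SE 0.0620, adjusted p = 0.000584). Of 9 genes of complex III, 5 were higher and 3 lower, with Uqcrb, a small structural subunit, at 0.84 log2 units (SE 0.0837, adjusted p = 7.78e-05) and Uqcr11, another, at 0.74 log2 units (SE 0.0596, adjusted p = 2.74e-05). Of 10 genes of complex IV, 5 were higher and 1 lower, with Cox6a2, the heart and muscle isoform of a regulatory subunit, at 1.22 log2 units (SE 0.0842, adjusted p = 1.92e-05). Of 15 genes of complex V, the ATP synthase, 6 were higher and 1 lower, with Atp5j2, a subunit of its membrane part, at 0.61 log2 units (SE 0.0840, adjusted p = 4.32e-04). Called in either direction were 75%, 88.9%, 60% and 46.7% of the 4 lists, beside 33.5% of all tested genes. The median log2 changes were 0.32, 0.19, 0.37 and 0.13, beside 0.22 for the Nduf genes and -0.026 for all tested genes.

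In SHR against WKY all calls in these 4 complexes were downward, in 4 of 4, 2 of 9, 2 of 10 and 5 of 15 genes, with medians of -0.28, -0.031, -0.19 and -0.25. Over all tested genes 21.9% were called there in either direction, and 9.93% of all tested genes were called lower. The shares of complexes III (22.2%) and IV (20%), 2 genes each and all lower, were near the first and above the second. Sdhc, a membrane anchor of complex II, changed by -0.38 log2 units (SE 0.0827, adjusted p = 0.00839) and Atp5g3, a gene of the ATP synthase ring, by -0.36 log2 units (SE 0.0824, adjusted p = 0.0113). In SHR+Allisartan against WKY the complexes had 0 higher and 1 lower, 4 and 3, 4 and 1, and 2 and 4, in the same order. Over all tested genes 12.9% were higher and 11.4% lower in that comparison. Uqcrq, a small subunit of complex III, was higher there by 0.87 (SE 0.0747, adjusted p = 4.35e-05), and Cox5a, a subunit of complex IV, was lower by a log2 change of -0.78 (SE 0.104, adjusted p = 0.000623).

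Of 7 tested complex I assembly factors with other names, 2 were higher and 1 lower in SHR+Allisartan than in SHR, 0 higher and 1 lower in SHR than in WKY, and 1 higher and 1 lower in SHR+Allisartan than in WKY. The shares called, 42.9%, 14.3% and 28.6%, stand beside 33.5%, 21.9% and 24.3% of all tested genes. Timmdc1, a factor for the membrane arm, was higher with allisartan by 0.49 log2 units (SE 0.0925, adjusted p = 0.00273) against SHR and 0.52 log2 units (SE 0.0925, adjusted p = 0.00298) against WKY. Acad9, a factor of an early membrane intermediate, was lower in SHR+Allisartan than in SHR by a log2 change of -0.28 (SE 0.0762, adjusted p = 0.0182). Of 8 genes used as signs of mitochondrial content, 5 were higher and 0 lower in SHR+Allisartan than in SHR, with Mdh2, malate dehydrogenase, at 0.43 log2 units (SE 0.0598, adjusted p = 0.000502). In SHR against WKY 0 were higher and 3 lower, and in SHR+Allisartan against WKY 3 were higher and 0 lower. Of these content genes 62.5%, 37.5% and 37.5% were thus called, beside the same 33.5%, 21.9% and 24.3%. Of 10 regulators of respiratory chain genes, 3 were higher and 0 lower in SHR+Allisartan than in SHR, so 30% were called, beside 33.5% of all tested genes. Ppargc1a, a coactivator of mitochondrial genes, averaged 20.6 FPKM in SHR+Allisartan, 10.1 in SHR and 12.1 in WKY, with changes of 0.98 log2 units (SE 0.129, adjusted p = 3.49e-04) against SHR and 0.73 log2 units (SE 0.129, adjusted p = 0.00278) against WKY. In SHR against WKY 0 regulators were higher and 1 was lower, Tfam, the packaging factor of mitochondrial DNA, at -0.28 log2 units (adjusted p = 0.0391). Tfam stands in both lists, so this call is also 1 of the 3 lower content genes. In SHR+Allisartan against WKY 2 were higher and 0 lower. The 10% and 20% of regulators called in these 2 comparisons were below the 21.9% and 24.3% of all tested genes.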

How the data were processed

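RNA of 9 heart libraries was measured as FPKM per gene in a single table deposited by the authors, and all 9 value columns were used. Per the labels' protocols, RNA came from the mirVana kit and libraries from the TruSeq Stranded mRNA kit. The submitters' processing notes name Trimmomatic, HISAT2, Cufflinks, HTSeq, DESeq and Rnor_6.0. Not given in the sources used here are tool versions, gene models and whether counting used strand. Whole reads could not be recovered from the low values.

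Each library was divided by a factor from the median of ratios of the 9194 genes that every library had at 1 FPKM or above. A gene had to reach 0.5 in 3 libraries to be tested. In R 4.3.3, limma 3.58.1 was fitted to log2(value + 0.5), with 1 mean per group, 6 residual degrees of freedom, a variance trend and two-sided tests. The procedure was tested on simulated data. Of 22601 gene IDs, 91.3% matched RefSeq GRCr8, and 27 symbols turned into dates were restored. Python 3.11.15 drew the figures.

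The Nduf genes, gene lists and motifs were chosen with earlier results of these data known. All Nduf genes could be named, but 1 is not reported here, though counts, medians and sums include it. Values per library are given for core subunits, Ndufa4, Ndufa4l2, up to 6 called genes with the smallest p and the 2 largest rises and falls per comparison among genes at 1 FPKM or more in a group. From other lists, up to 3 called genes per comparison could be named. Alternatives were other scalings (none, quantile, cyclic loess), removal of the trend with a gene's genomic span, pseudocounts of 1 and 0.1, no filter, array weights, robust moderation, a replicate block, fits to the libraries of 1 comparison and leaving out each library. Summing near copies into a gene was added after the data were seen.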

Additional observations from a re-analysis of the deposited data

How the results depend on the processing

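Over 21 alternative settings, 2 of the 10 calls in SHR against WKY, 15 of 24 in SHR+Allisartan against SHR and 12 of 19 in SHR+Allisartan against WKY were kept in every one. With its copy added, Ndufa10 turned to a call upward in SHR against WKY (0.43, adjusted p = 0.000626), and its call downward in SHR+Allisartan against WKY was lost, at a positive 0.11 (adjusted p = 0.194). Changes of sign between values called in neither setting were not counted. For SHR against WKY, the 2 genes called higher became 4 without rescaling and 4 with array weights. The 8 called lower became 5 without rescaling, 5 with cyclic loess, 13 with the trend by genomic span removed, 2 without the filter, and 1 to 11 when 1 library was left out. The median of -0.19 became -0.11 with quantile normalization and -0.091 with cyclic loess, while all genes called (2561) ranged over 1551 to 2623 with 1 library left out. For SHR+Allisartan against SHR, the 20 higher became 13 without the filter, and the 4 lower became 2 with copies summed. In that sum Ndufa1 lost its call, and Ndufa10l1 was merged into Ndufa10 and had no row, so 20 settings cover it. The median of 0.22 became 0.15 with either quantile or cyclic loess normalization, and 0.18 to 0.29 with 1 library left out. For SHR+Allisartan against WKY, the median of 0.12 ranged over 0.047 to 0.17 with 1 library left out, and all genes called (2852) became 1814 without the filter. That setting tests more genes. The cause of the other shifts was not tested.

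Deviations of replicates with the same number were weakly correlated (-0.062 to 0.083 over 9 pairs, with 8 of 18 comparisons best with the own number). Other pairs gave -0.069 to 0.064. For the Nduf genes, however, the median log2 deviation of a library fell with rising replicate number within every group. Replicates 1, 2 and 3 had 0.224, 0.138 and 0.076 under allisartan. Untreated SHR had -0.075, -0.096 and -0.201, while WKY had 0.078, 0.012 and -0.016. Whether equal numbers mark paired libraries was not tested beyond this. With a replicate block, 3 genes were higher and 12 lower in SHR against WKY, 21 and 4 in SHR+Allisartan against SHR, and 13 and 8 in SHR+Allisartan against WKY.

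Sequencing depth is unknown, so the precision of low rows such as Ndufa1 and Ndufs6 cannot be given. Without rescaling, the median change of all genes moved to 0.055 in SHR against WKY and -0.080 in SHR+Allisartan against SHR.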
